A study of Mus musculus with 12 samples.

Results

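Mouse embryonic stem (ES) cells that lack BAF250b were compared with their wild-type parental line at 18 h after passaging, on 6 of the 12 two-colour arrays of the series. The members were every array labelled 18 h. They comprise 2 arrays of wild-type (WT) line 3, 2 of BAF250b-/- clone 4 and 2 of BAF250b-/- clone 7, so 4 knockout arrays stood against 2 WT arrays. The other 6 arrays hold the same lines at 72 h and are used only where an 18 h difference is followed to the later time. All lines share a mixed background of B6,129 and CD1, are listed as derived from blastocysts of 3.5 dpc with an age label of 2 months, and were hybridised with Cy3 against a Cy5 reference pooled from 11 cultured cell lines. The dyes were not swapped.

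The knockout is represented by 2 clones and the WT by 1 line, so a difference between knockout and WT cannot be told apart from a difference between that WT line and any derived clone. The design text speaks of biological replication, but both 18 h WT arrays carry the letter A after the line number, whereas the paired 18 h arrays of each clone carry A and B, and what the letter stands for is not stated. What the p-values weigh is thus the scatter from array to array, part of which may be technical. WT and clone 4 arrays were extracted from the scans on 1 day and clone 7 arrays on another, so extraction day and clone 7 cannot be told apart, whereas clone 4 against WT is a comparison within a day.

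BAF250b, encoded by Arid1b, is a DNA-binding subunit of the BAF form of the SWI/SNF complex, which slides and evicts nucleosomes with energy from ATP. A BAF complex holds either BAF250b or its paralog BAF250a, encoded by Arid1a. In ES cells BAF complexes occupy promoters and enhancers and are known for their part in self-renewal and in the exit from pluripotency.

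The arrays report 60-base probes under probe identifiers without gene names. Of 42006 probes, 467 were placed by an exact match of at least 30 bases to windows around RefSeq gene starts (GRCm38.p6), 289 of them over all 60 bases, and 267 lay within exactly 1 gene on its own strand, naming 263 genes. The matched window can belong to another gene, so a gene name says only that the probe lies within that gene's span. Arid1b and Arid1a are not among the 263 genes, so the targeted gene was not analysed here and the knockout labels were not checked against it. No marker on the lists for pluripotent cells, primitive endoderm, trophoblast, mesoderm or neuroectoderm has a placed probe either, and of the 24 genes on the embryonic fibroblast list only Acta2 has one, so the labelled cell type was not checked. Of 343 genes on 16 lists of subunits, lineages, cell cycle, signalling and stress, 2 have a placed probe and 0 were called by limma. They are Hspa1a, an inducible heat shock protein gene, with a log2 difference of -0.07 ± 0.06 (SE), adjusted p = 0.504 and unadjusted p = 0.241, and Acta2, the smooth muscle actin gene on the fibroblast list, with 0.01 ± 0.05, adjusted p = 0.957 and unadjusted p = 0.881. The Hspa1a signal was above the 95th percentile of negative controls on 1 of the 6 arrays.

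The results turn on a small number of probes and on groups of probes that share sequence, so those sequences come first, written 5′ to 3′ as on the array. The pair below had the lowest knockout signal relative to WT, and capitals mark their longest shared stretch, of 25 bases.
Z00033250-1: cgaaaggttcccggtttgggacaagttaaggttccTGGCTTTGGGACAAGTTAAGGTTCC
Z00033089-1: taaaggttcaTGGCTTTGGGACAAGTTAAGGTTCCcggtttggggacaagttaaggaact
Both probes hold 2 copies of the stretch GGGACAAGTTAAGG, spaced 25 bases apart, so both lie in a repeated sequence and are not independent of each other.

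The next 3 probes carry the start of a histone H2B coding sequence. Z00032024-1 is placed in H2bc15, Z00030788-1 in H2bc7, and Z00056746-1 in no window. Capitals mark the 26 bases common to all 3.
Z00032024-1: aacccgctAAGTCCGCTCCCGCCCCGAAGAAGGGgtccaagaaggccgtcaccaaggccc
Z00030788-1: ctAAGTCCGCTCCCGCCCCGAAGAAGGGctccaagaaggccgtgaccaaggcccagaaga
Z00056746-1: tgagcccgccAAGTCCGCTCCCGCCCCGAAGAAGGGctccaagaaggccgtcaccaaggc

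Members of the largest group of probes related by sequence are shown by the 3 lowest called probes that hold the group's most common stretch, in capitals.
Z00036686-1: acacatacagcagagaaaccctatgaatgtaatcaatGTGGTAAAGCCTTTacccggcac
Z00036585-1: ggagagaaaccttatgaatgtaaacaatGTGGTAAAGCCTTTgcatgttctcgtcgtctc
Z00027095-1: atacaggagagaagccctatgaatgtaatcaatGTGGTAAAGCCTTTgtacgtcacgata

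The probe with the highest knockout signal relative to WT, and the probe that differed most between the clones, are shown with no stretch marked.
Z00071962-1: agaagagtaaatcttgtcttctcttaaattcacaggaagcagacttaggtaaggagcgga
Z00031151-1: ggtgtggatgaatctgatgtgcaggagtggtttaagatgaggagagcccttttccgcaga

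At 18 h the knockout differed from WT at many probes and mostly by a little. Of 42002 probes tested with limma, 5981 (14.2%) passed an adjusted p of 0.05, 2929 higher in the knockout (6.97%) and 3052 lower (7.27%). The median size was 0.28 on the log2 scale among the higher and 0.24 among the lower, and 280 higher and 156 lower probes reached 1.5-fold. A difference of at least 2-fold was measured at 89 probes (0.212%), 62 higher and 27 lower. The count rested on both WT arrays: it was 2753 without WT array 1 and 2845 without WT array 2. The share of calls that were higher was 49.0%, and 30.6% when log ratios were centred on the median instead of fitted by loess. In the sample channel alone higher calls outnumbered lower ones in every bin of brightness. There were 1553 higher and 1033 lower among probes with a mean log2 sample signal of 9 to 10. The balance of higher and lower calls thus depends on the scaling.

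Of the 6 arrays, those of WT had the highest median sample signal and those of clone 7 the lowest. The medians were 639.9 and 653.2 in WT, 567.1 and 624.4 in clone 4, and 538.1 and 558.7 in clone 7. Outlier spots numbered 529 on WT array 2 and 28 to 139 on the other 18 h arrays. Between 90.01% and 97.3% of probes were brighter than 95% of the negative controls. The log2 ratios of paired arrays correlated across probes at 0.99 in each group. The SD of the difference between paired arrays was 0.09 in WT, 0.11 in clone 4 and 0.12 in clone 7. The number of arrays limits the precision.

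The share of probes called moved with their brightness. Among probes with a mean log2 sample signal over 12, 709 of 2186 were lower in the knockout and 193 higher, whereas among probes between 9 and 10, 881 of 16959 were lower and 1481 higher. With the sample channel alone the brightest bin held 154 lower and 167 higher calls, and with median centring 555 lower and 110 higher. It held 376 lower and 82 higher without WT array 1, and 362 lower and 109 higher without WT array 2. An excess of lower calls among bright probes was thus measured in the ratio to the pool and not in the sample channel alone.

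**Figure D1:**
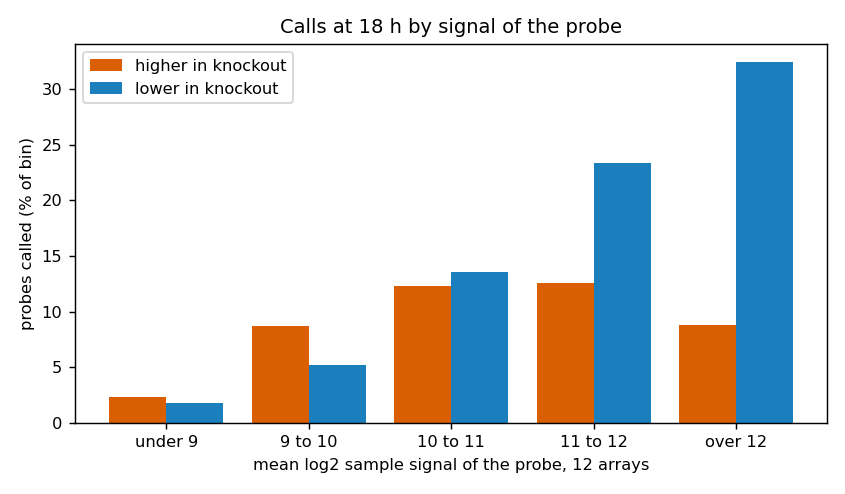
Bars give the percentage of probes called higher (orange) or lower (blue) in the knockout at 18 h, by bins of mean log2 sample signal over the 12 arrays. In the brightest bin 32.4% of probes were lower and 8.83% higher, and in the dimmest 1.74% and 2.32%.

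Base content moved with the calls to a smaller degree. Of probes with up to 35% G and C, 17.7% were called, against 10.9% of those over 50%. Of the 2835 probes that hold the letters AATAAA on the probe strand, the core of the polyadenylation signal, 20.9% were called, against 13.8% of the others, and higher and lower calls were about equally common among them, at 300 and 292.

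Across single probes, the highest was Z00071962-1, whose log2 ratio to the pool was -1.14 and -1.13 in WT, 1.11 and 1.16 in clone 4, and 1.15 and 1.21 in clone 7. All 4 knockout arrays lay above both WT arrays, with a difference of 2.29 ± 0.04 (SE), a 4.91-fold higher ratio (limma adjusted p = 8.76e-08). Its WT sample signals, 439.3 and 442.8, were close to the negative controls, whose 95th percentile was 430.5 and 425.7 on those arrays. The size therefore depends on the background correction: it was 0.95 without one and 2.77 with the scanner's log ratio.

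Z00035372-1 was second. Its log2 ratio was 0.70 and 0.68 in WT, 2.89 and 2.78 in clone 4, and 2.80 and 3.04 in clone 7, a difference of 2.19 ± 0.08 (4.57-fold, limma adjusted p = 8.98e-07). The sample signal rose from 760.3 and 791.0 in WT to between 1721.3 and 2297.4 in the knockout, so the probe was measured well above background on both sides.

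The lowest probes were the repeat pair shown above. Z00033250-1 had log2 ratios of 2.70 and 2.60 in WT, 0.54 and 0.46 in clone 4, and 0.29 and 0.23 in clone 7, a difference of -2.27 ± 0.06 (limma adjusted p = 3e-07), and its WT sample signals of 30169.9 and 26988.9 stood against 3975.1 to 5911.4 in the knockout. Z00033089-1 gave 2.45 and 2.32 in WT, 0.35 and 0.28 in clone 4, and 0.08 and 0.00 in clone 7, a difference of -2.21 ± 0.08 (limma adjusted p = 8.98e-07). The ratio was far above the pool in WT and near it in the knockout, with no overlap of arrays. Neither probe was placed in a gene.

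Identical sequences give a check within arrays. The same 60 bases stand under 3 probe names, Z00057891-1, Z00059387-1 and Z00059544-1, and their knockout differences were 1.27 ± 0.07, 1.30 ± 0.05 and 1.22 ± 0.16. Their WT sample signals ran from 493.4 to 518.8, where the 95th percentile of negative controls was 430.5 and 425.7. Without background correction the median of their differences was 0.48, so their agreement does not check the size. Over all 51 pairs of probes with identical sequence the median gap between their differences was 0.06 and the largest 0.21. Over 462 pairs that share 30 to 59 bases, 69 were called in the same direction, 0 in opposite directions, and 46 had 1 of the pair called.

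**Figure D2:**
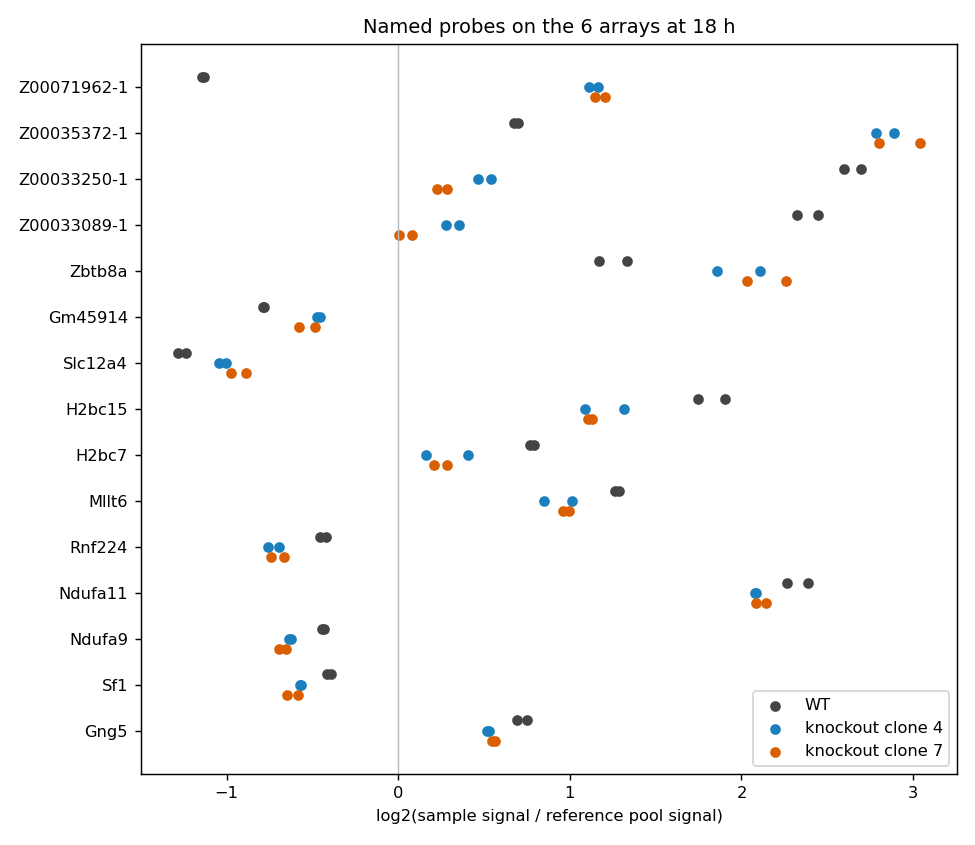
Each point is 1 array at 18 h and shows the log2 ratio of sample to reference pool for a named probe, with WT in grey, clone 4 in blue and clone 7 in orange. For every probe shown the 4 knockout arrays lie on 1 side of both WT arrays, as the rule for naming required.

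Among the 267 probes placed in 1 gene, 10 were called higher and 15 lower, 9.36% against 14.2% of all probes tested. Those that also passed in each clone, were bright enough and had no overlap between knockout and WT arrays (36.6% of all probes had none, and in 19.8% the knockout was lower) were 3 higher and 8 lower. Over all probes, 7.09% were called in each clone and over both in 1 direction.

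Among the placed genes, histone H2B gave the largest decrease. Replication-dependent histone genes are transcribed in S phase and supply the core histones for new chromatin. H2bc15 (Z00032024-1, chr13:21754130-21754162, plus strand, 33 bases matched) had log2 ratios of 1.90 and 1.75 in WT, 1.31 and 1.09 in clone 4, and 1.13 and 1.11 in clone 7. The difference was -0.67 ± 0.08 (limma adjusted p = 0.000557). H2bc7 (Z00030788-1, chr13:23574131-23574177, minus strand, 47 bases matched) fell by 0.51 on the log2 scale, with an SE of 0.07 and a limma adjusted p of 0.00126. Its log2 ratio was 0.79 and 0.77 in WT and between 0.16 and 0.40 in the knockout.

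The H2B probe placed in no window, Z00056746-1, measured -0.27 ± 0.08 and did not pass (limma adjusted p = 0.0691). The start of the shared H2B stretch stands in 4 probes on the array, and only the 3 shown above are described. H2B genes are near-identical copies, so these probes may read several of them and the gene names are uncertain. Other placed histone probes did not pass. Their differences were 0.00 for H2bc11, -0.02 for H2ac18, -0.10 for H4c3 and 0.03 for H4c8, and that for H3f3a, a replication-independent H3.3 gene, was 0.13.

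Zbtb8a, which encodes a BTB-domain zinc finger protein, was the highest gene. Its probe (Z00010249-1, chr4:129354034-129354093, minus strand, all 60 bases) had log2 ratios of 1.17 and 1.33 in WT, 1.86 and 2.11 in clone 4, and 2.03 and 2.26 in clone 7. The difference was 0.81 ± 0.11, or 1.76-fold (limma adjusted p = 0.00111). The Zbtb8a probe matched the start window of LOC108168979 and lies 23935 bases from the nearest Zbtb8a start. Slc12a4, a potassium-chloride cotransporter gene (chr8:105943596-105943652, minus strand, 57 bases), rose by 0.28 ± 0.04 (limma adjusted p = 0.0019), from -1.28 and -1.24 in WT to between -1.05 and -0.89, and measured 0.65 in the sample channel alone. The Slc12a4 probe matched the start window of Lcat, 22463 bases from the nearest Slc12a4 start. The long noncoding RNA gene Gm45914 (chr9:21955519-21955578, minus strand) rose by 0.29 ± 0.05 (limma adjusted p = 0.0029), but measured 0.06 in the sample channel alone, with an adjusted p of 0.791 there.

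Among the lower genes, Mllt6, a partner gene of KMT2A fusions in leukaemia (chr11:97685346-97685394, plus strand, 49 bases), had log2 ratios of 1.26 and 1.29 in WT and 0.85 to 1.01 in the knockout, a difference of -0.32 ± 0.05 (limma adjusted p = 0.00433). Rnf224, a RING finger gene (chr2:25236738-25236781, minus strand, 44 bases), differed by -0.28 ± 0.05 (limma adjusted p = 0.0045). The complex I subunit genes of the respiratory chain Ndufa11 (chr17:56717818-56717877, plus strand) and Ndufa9 (chr6:126821978-126822037, minus strand) differed by -0.23 ± 0.04 and -0.21 ± 0.04. Their limma adjusted p values were 0.00742 and 0.00429. The Ndufa9 probe matched the start window of 1700018A23Rik, 27107 bases from the nearest Ndufa9 start. Sf1, which encodes the splicing factor that binds the branch point (chr19:6363646-6363705, plus strand, with Gm14966 on the opposite strand), measured -0.19 ± 0.03 (limma adjusted p = 0.00526), and Gng5, a G protein gamma subunit gene (chr3:146499899-146499958, plus strand), -0.18 ± 0.03 (limma adjusted p = 0.00822).

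These smaller decreases were less stable than the histone change. In the sample channel alone Ndufa11 and Gng5 both measured 0.11, above WT, and without WT array 1 their adjusted p values were 0.0859 and 0.0933. Without WT array 2 the adjusted p was 0.0529 for Rnf224 and 0.0574 for Sf1. The adjusted p of Ndufa11 was 0.228 without background correction. With the sample channel alone the adjusted p was 0.121 for Mllt6, 0.228 for Rnf224, 0.239 for Ndufa9 and 0.079 for Sf1. Zbtb8a, Slc12a4, H2bc15 and H2bc7 passed under every alternative in which they were measured.

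The other called genes passed the test over both clones but not in each clone. They include the ribosomal protein genes Rpl38, at 0.34 ± 0.08 (limma adjusted p = 0.0261), and Rps27l, at -0.20 ± 0.05 (adjusted p = 0.0301), and Sympk, whose product is a scaffold of messenger RNA 3′ end processing, at -0.19 ± 0.04 (adjusted p = 0.0142). These were chosen after their values were seen. Ribosomal protein genes have many processed copies, so their probes may read others too.

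Some probes were placed on the strand opposite to a gene. Of 54 such probes, 4 were called higher and 3 lower, 13.0% against 14.2% of all probes, so the share was near the background. Both called probes opposite Fut8, the gene of the core fucosyltransferase, were higher: Z00032712-1 (chr12:77388801-77388860) by 0.57 ± 0.06 and Z00073737-1 (chr12:77409904-77409963) by 0.29 ± 0.04, with limma adjusted p values of 0.000578 and 0.00215. The 2 called probes opposite the predicted gene Gm42004 were lower, Z00070538-1 (chr5:113812284-113812343) at -0.50 ± 0.06 and Z00070167-1 (chr5:113812456-113812489) at -0.43 ± 0.06. Z00068830-1 (chr15:99703847-99703906), opposite Smarcd1, which encodes the BAF60a subunit of the SWI/SNF complex, measured -0.17 ± 0.04 (adjusted p = 0.0276). These values concern the opposite strand and give no level for Fut8 or Smarcd1 themselves. These probes were also chosen after their values were seen.

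Grouping probes by shared sequence showed blocks that moved in 1 direction. Probes joined through any shared run of 18 bases formed 141 groups of at least 3 probes, 654 probes in all. Members of a group share sequence and may read the same transcripts, so they are not independent measurements. The groups described were picked after their values were seen and were given no test of their own.

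The largest group held 57 probes, of which 29 were called lower and 0 higher, against 7.27% lower among all probes. The group was bright, with a median of 11.9 in mean log2 sample signal. Among all probes between 11 and 12 on that measure, 23.4% were called lower. The group's letters resemble those that code for the linkers and fingers of C2H2 zinc finger proteins, a large family of DNA-binding proteins. No member was placed in a gene. The median difference was -0.25, with -0.21 in clone 4 and -0.28 in clone 7, and single members ran from -0.45 to 0.15. The median stayed between -0.33 and -0.20 under the other scalings and with any 18 h array left out, whereas the number called lower ran from 13, without WT array 1, to 35. At 72 h, on other arrays of the same lines, 56 of the 57 were called lower (18.1% of all probes were), with a median of -0.75. Among probes with a mean log2 sample signal between 11 and 12, 932 of 2134 were called lower at 72 h.

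**Figure D3:**
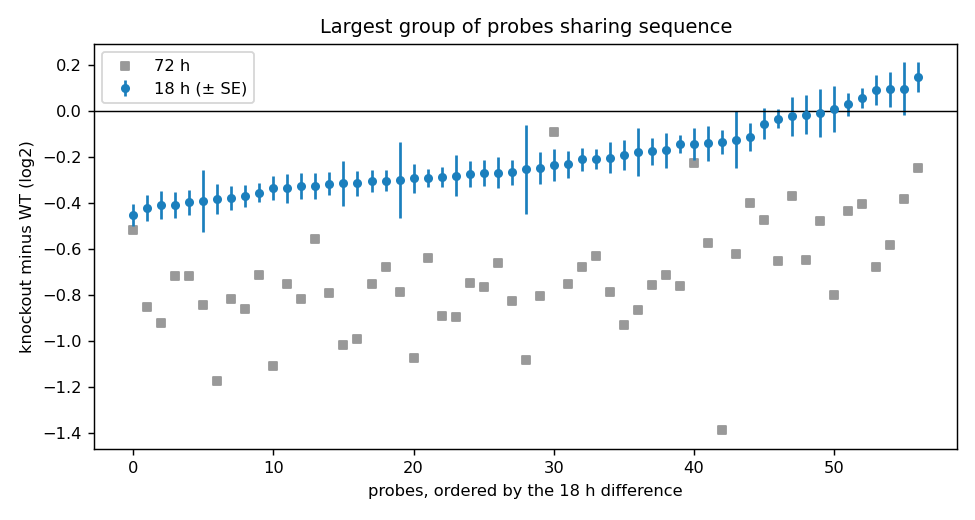
Points give knockout minus WT on the log2 scale for each of the 57 probes of the largest group, ordered by the 18 h value, with blue circles and SE bars for 18 h and grey squares for 72 h. Most 18 h values lie below 0, and the 72 h median of -0.75 is lower than the 18 h median of -0.25.

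A second group, of 23 bright probes, moved the other way: 14 were called higher and 0 lower. Higher calls made up 6.97% of all probes and 8.83% of those with a mean log2 sample signal over 12, where the group's median lay. The group's median difference was 0.13, with a range from 0.06 to 0.29. Its call count moved with the processing while its median did not change sign. It had 1 call with median centring, 3 without WT array 1 and 5 without WT array 2, with medians of 0.13, 0.10 and 0.16. Without any 1 knockout array it had 7 to 9 calls. It had 18 calls without background correction, with a median of 0.13, and 9 in the sample channel alone, with a median of 0.25. At 72 h all 23 were called higher (14.1% of all probes were), with a median of 0.40. Among probes with a mean log2 sample signal over 12, 580 of 2186 were called higher at 72 h. Another group, of 19 probes, had a median of -0.27 at 18 h, or 0.03 in the sample channel alone, and 0.42 at 72 h, but 0 of its probes were called by limma at either time and 0 had an unadjusted p under 0.05 at 18 h.

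The clones were next taken separately. Both comparisons use the same WT arrays. Clone 4 differed from WT at 3550 of 42003 probes (8.45%), 1740 higher (4.14%) and 1810 lower (4.31%), and clone 7 at 5848 (13.9%), 2826 higher (6.73%) and 3022 lower (7.19%). The clone 4 count was 1419 and 1642 without WT arrays 1 and 2, and 2029 and 1346 without clone 4 arrays 1 and 2. The clone 7 count was 3193 and 3017 without WT arrays 1 and 2, and 2934 without clone 7 array 2. The share of higher calls for clone 4 was 49.0%, and 38.2% with median centring and 67.3% in the sample channel alone. For clone 7 it was 48.3%, and 26.0% with median centring, 37.4% without background correction and 58.7% in the sample channel alone.

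For the probes compared here, the values of the clones lay much closer to each other than to WT. The rule that named these probes required a call in each clone in the same direction, so they cannot show how alike the clones were in general. Over all probes, 2977 (7.09%) were called in both clones in the same direction and 2 in opposite directions. Another 571 were called in clone 4 only and 2869 in clone 7 only. Both contrasts subtract the same WT arrays, whose scatter moves the clones' differences the same way, so these counts do not measure likeness either. Z00071962-1 was 2.27 above WT in clone 4 and 2.31 in clone 7, with a difference between clones of 0.04 (95% interval -0.08 to 0.16). Zbtb8a was 0.73 and 0.90 above WT, with a difference of 0.16 (95% interval -0.11 to 0.44). H2bc15 was at -0.63 and -0.71, with a difference of -0.08 (95% interval -0.28 to 0.12). For Z00033250-1 the clones were at -2.15 and -2.39, a difference of -0.24 (95% interval -0.41 to -0.08, unadjusted p = 0.00839, limma adjusted p = 0.3). Z00033089-1 was at -2.07 and -2.34, a difference of -0.27 (95% interval -0.47 to -0.07, unadjusted p = 0.0126, limma adjusted p = 0.34). Both intervals lie below 0, with clone 7 further from WT, but neither difference passed the adjustment over all probes.

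Tested against each other, the clones differed at 57 of 42004 probes (0.136%), 32 higher (0.0762%) and 25 lower (0.0595%) in clone 7, with 4252 probes at an unadjusted p under 0.05. The count fell to 5 when only the 6 arrays at 18 h were fitted and was 10 without either WT array, 23 and 29 without clone 4 arrays 1 and 2, and 35 and 11 without clone 7 arrays 1 and 2. The share of higher calls was 56.1%, 33.3% with median centring or without background correction, 41.7% with the scanner's log ratio, 45% with the deposited value table and 66.7% of 3 calls in the sample channel alone. A separate extraction day goes with clone 7, and its part in these differences cannot be told apart from the clone.

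On 4 of the 6 probes named for this contrast, clone 7 passed against WT at 18 h and clone 4 did not. Z00031151-1 had log2 ratios of 3.85 and 3.88 in WT, 3.51 and 3.68 in clone 4, and 5.04 and 4.78 in clone 7. Clone 7 exceeded clone 4 by 1.31 ± 0.17 (limma adjusted p = 0.0348). It was 1.04 above WT, whereas clone 4 was at -0.27 and did not pass against WT (adjusted p = 0.424). Z00024306-1 was at 1.20 and 1.31 in WT, 1.07 and 1.25 in clone 4 and 2.27 and 2.16 in clone 7, a difference between clones of 1.05 ± 0.11 (adjusted p = 0.0175). Z00006571-1 was at -0.85 and -0.74, -0.74 and -0.63, and -1.31 and -1.38 in the same order, a difference of -0.66 ± 0.06 (adjusted p = 0.0112).

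Z00031864-1 was at 2.63 and 2.68 in WT, 2.41 and 2.58 in clone 4, and 1.42 and 1.78 in clone 7, a difference of -0.90 ± 0.12 (limma adjusted p = 0.038). At 18 h clone 4 did not pass against WT on these 4 probes. At 72 h clone 4 lay on clone 7's side of WT for Z00024306-1, at 1.85 and 1.99 against 1.05 and 1.09 in WT. The same held for Z00031864-1, at 1.14 and 1.01 against 2.44 and 2.53. For Z00031151-1 the clone 4 arrays overlapped those of WT at 72 h, and for Z00006571-1 they lay on the other side of WT from clone 7.

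The other 2 probes passed against WT in both clones, by unequal amounts. Z00000270-1 was at 0.65 and 0.54 in WT, 1.49 and 1.70 in clone 4, and 2.59 and 2.80 in clone 7, and the clones differed by 1.10 ± 0.09 (limma adjusted p = 0.00912). Z00064108-1 was at 1.62 and 1.62 in WT, 0.70 and 0.72 in clone 4, and -0.47 and -0.53 in clone 7, a difference of -1.21 ± 0.07 (adjusted p = 0.00144). Of these 6 probes only Z00064108-1 passed under every alternative run. The adjusted p of Z00031864-1 was above 0.05 in 11 of 16 alternatives, that of Z00031151-1 in 10, that of Z00024306-1 in 9, that of Z00006571-1 in 3 and that of Z00000270-1 in 2.

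**Figure D4:**
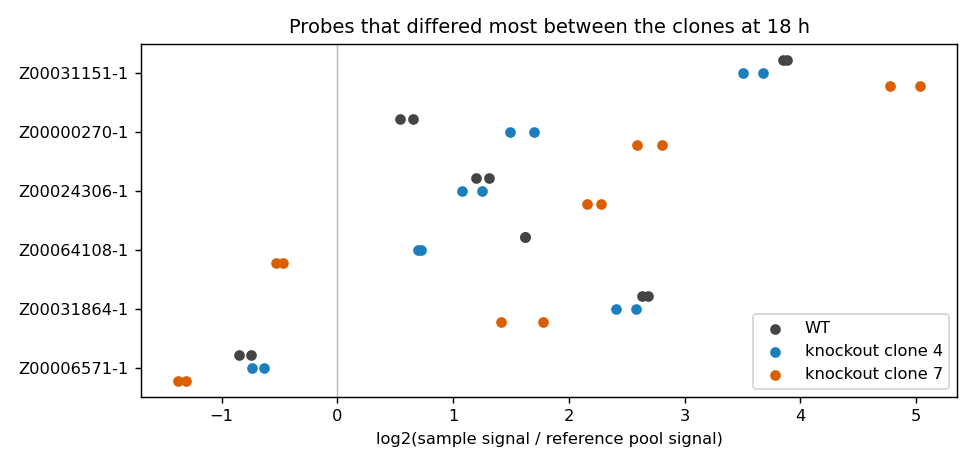
Each point is 1 array at 18 h and shows the log2 ratio of sample to reference pool for the 6 probes named for the difference between clones, with WT in grey, clone 4 in blue and clone 7 in orange. On each of them the clone 7 arrays lie apart from the clone 4 arrays, and for Z00031151-1 they lie 1.31 higher on average.

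The last comparison asks whether differences at 18 h were of the same size at 72 h. The 2 times use different arrays of the same lines. The 72 h arrays did enter the choice of probes through the spread, which was estimated over all 12 arrays, but not through the 18 h differences. The change between times subtracts the same 18 h differences by which probes were chosen, so the choice itself favours changes toward 0. Of all 5981 probes called at 18 h, 3209 were called in the same direction at 72 h and 1076 in the opposite one, and the change between times was called for 3522. Among all probes tested, 14.1% were called higher at 72 h and 18.1% lower, and the change was called at 23.9%. The probes with larger differences are given next. Of the 62 probes at least 2-fold higher at 18 h, 53 were called higher at 72 h (14.1% of all probes were), 3 were called lower and 6 were not called. All 27 probes at least 2-fold lower at 18 h were called lower at 72 h (18.1% of all probes were). The median difference of the higher set was 1.17 at 18 h and 1.18 at 72 h, and that of the lower set -1.32 and -1.52. Single probes went both ways: the change between times was called for 37 of the 62 higher probes, 21 toward 0 and 16 away from it, and for 10 of the 27 lower probes, 2 toward 0 and 8 away. Over all probes, the knockout effect differed between the times at 10036 of 42000 (23.9%), 4285 of them upward (10.2%), and at 5178 in the sample channel alone.

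**Figure D5:**
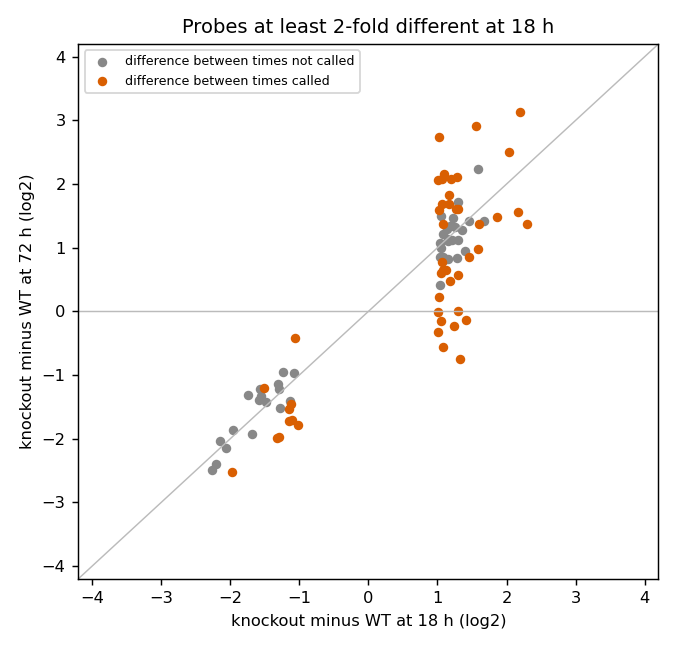
Each point is 1 of the 89 probes at least 2-fold different at 18 h, with the knockout minus WT difference at 18 h on the horizontal axis and at 72 h on the vertical axis, both on the log2 scale. Orange points are probes whose difference changed between the times by limma. All 27 lower probes stay below 0 at 72 h, whereas some of the 62 higher probes lie at or below 0.

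Several named probes, picked by their 18 h differences, differed between the times. For Zbtb8a the knockout difference was 0.81 at 18 h and -0.28 at 72 h, where it did not pass (limma adjusted p = 0.076), and the change between times of -1.10 passed with an adjusted p of 0.00054. Its log2 ratio at 72 h was 1.46 and 1.73 in WT and 1.12 to 1.57 in the knockout, so the groups overlapped there. Mllt6 was further below WT at 72 h, at -1.06, and Slc12a4 further above it, at 0.65. Ndufa9 was at 0.19 above WT at 72 h (adjusted p = 0.00259), opposite to 18 h. The antisense Fut8 probes were also on the other side at 72 h, at -0.27 and -0.67, with adjusted p values for the change of 0.000145 and 6.17e-06. H2bc15 and H2bc7 were at -0.75 and -0.62 at 72 h, and their change between times did not pass (adjusted p = 0.662 and 0.526). The repeat probes Z00033250-1 and Z00033089-1 were at -2.49 and -2.39 at 72 h, and their change did not pass either (adjusted p = 0.119 and 0.284).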

How the data were processed

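Per the labels' protocols, RNA was extracted with Trizol and labelled with a linear amplification kit. Spot intensity was read per the file headers with Agilent Feature Extraction, and the deposited scanner files hold mean and background intensity in both channels and a log10 ratio. The deposited value table holds log10 values of 25674 probes. Their differences between arrays correlated with those of the scanner log10 ratios at 0.966 or more, column medians ran from 2.99 to 3.00, and their centring by the authors is not stated.

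From the intensities, background was corrected by normexp (offset 50) and ratios were fitted by loess within arrays, with control spots at weight 0 and outlier spots left out. log2(sample/reference) was tested with limma 3.58.1 in R 4.3.3 over all 12 arrays, 1 mean per line and time, with Benjamini-Hochberg adjustment over all probes at 0.05. Probes with a missing array were fitted on the arrays that remained. The fit was run on simulated data with independent noise and shifts put in both clones. Those data held no line, clone or day effect, so the run says nothing of such effects.

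Named were the 2 highest and 2 lowest probes and up to 12 placed genes in each direction. They had to be called over both clones and in each, have no overlap between knockout and WT arrays, and lie above the 95th percentile of negative controls in the higher group. Arid1b and Arid1a were to be named too, but have no placed probe. The 3 highest and 3 lowest probes between clones were named as well, and any other name is marked in the text. Members, gene lists and groups were chosen with earlier results of these data known. Exon and intron positions were not used here. Matches to windows at gene starts say nothing of the other probes. The probe groups, the bins of level and their alternatives were chosen after seeing the data. Alternatives changed background, scaling, signal, filter, flags, arrays, variance model, block and threshold.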

Additional observations from a re-analysis of the deposited data

Results flagged for a closer look

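The knockout effect differed between 72 h and 18 h by limma's interaction test for 9 of the probes named for knockout against WT. These probes were picked by their 18 h differences, which enter that test. The 72 h effect minus the 18 h effect was -0.91 for Z00071962-1, 0.94 for Z00035372-1, -1.10 for Zbtb8a (Z00010249-1), -0.31 for Gm45914 (Z00044427-1), 0.37 for Slc12a4 (Z00011368-1), -0.74 for Mllt6 (Z00045920-1), 0.38 for Rnf224 (Z00059830-1), -0.23 for Ndufa11 (Z00044170-1) and 0.40 for Ndufa9 (Z00023831-1).

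Clone 7 minus clone 4 at 18 h was 1.31 for Z00031151-1, 1.10 for Z00000270-1, 1.05 for Z00024306-1, -1.21 for Z00064108-1, -0.90 for Z00031864-1 and -0.66 for Z00006571-1. These probes were picked for this difference. Their knockout effect, the mean of both clones minus WT, also differed between the times by limma's interaction test, except at Z00031151-1. The 72 h effect minus the 18 h effect was 1.35 for Z00000270-1, 0.84 for Z00024306-1 and 0.31 for Z00064108-1. It was -1.18 for Z00031864-1, 0.34 for Z00006571-1 and 0.02 for Z00031151-1 (limma adjusted p = 0.971).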

How the results depend on the processing

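With a fold of at least 1.5 required, the calls numbered 436 for knockout against WT, 330 for clone 4, 639 for clone 7, 10 between clones and 3100 for the change between times. With median centring, clone 4 had 2307 calls and the clones differed at 36 probes. In the sample channel alone clone 4 had 948 calls, the clones differed at 3 probes and the change between times was called at 5178. The clones differed at 12 probes with the scanner log ratio, at 20 with the deposited value table and 5 with the 6 arrays at 18 h only. With any 18 h array left out, calls ran from 2753 to 6035 for knockout against WT, 1346 to 3451 for clone 4, 2934 to 5216 for clone 7, 10 to 35 between clones and 8090 to 9908 for the change between times. Fewer arrays leave fewer degrees of freedom, but the cause of these shifts was not tested. Ndufa11 and Gng5 changed sign in the sample channel alone, both to 0.11.

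Replicate numbers were not taken to pair the samples, since deviations did not go together in every pair of groups: they correlated at -0.07 for WT with clone 4, -0.08 for WT with clone 7 and 0.36 between clones, where the replicate block gave 26 calls against 57 without it. The replicate block gave 5861 calls for knockout against WT. Extraction day as a random block could not be fitted, since each line lies in 1 day. Dim probes are limited by signal over background.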
